A study of Mus musculus with 2 samples.

Results

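The tumour necrosis factor (TNF) superfamily comprises ligands, most of them made as trimers anchored in the membrane, and the receptors that they bind. Genes were taken as members when their symbol began with Tnfsf or Tnfrsf followed by a digit, or was Tnf, Lta, Ltb, Ltbr, Cd27, Cd70, Eda or Edar. Of 22909 genes with a matched probe on the arrays, 38 were members, 15 ligands and 23 receptors, and they were measured by 53 probes. Members of the family with other symbols, such as Fas and Cd40, were outside the rule and are described with the signaling genes.

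TNF superfamily receptors signal through adaptor proteins. Receptors with a cytoplasmic death domain can assemble complexes that activate caspase-8 or, through RIPK3 and MLKL, necroptosis, whereas receptors that bind TRAF proteins mainly activate NF-kappa B and MAP kinases. In the intestine the family is known for TNF, the target of antibody treatment in inflammatory bowel disease, for lymphotoxin, which directs the formation of lymphoid follicles, and for BAFF and APRIL, which keep B cells and plasma cells alive.

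Gene expression was measured in whole colon of C57BL/6 mice at 8 weeks of age, on Agilent mouse arrays with 1 colour (Cy3) and 1 array per genotype. The control mice carried Villin-Cre, and the EP4 cKO mice carried Villin-Cre; EP4flox/flox, so Cre was present in both. The Villin promoter drives Cre in the intestinal epithelium, and Ptger4, the gene of the prostaglandin E2 receptor EP4, is therefore left intact by design in immune, stromal and muscle cells of the same tissue. By the labels, each array received RNA combined from 3 pools of colon. With 1 array per genotype there is no replicate check and no p-value, and every difference describes these arrays only.

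Signals are scanner intensities after background subtraction, scaled on each array to a trimmed mean of 2500. A probe had a value when the scanner software flagged it as well above background at least once, and a gene was represented by the brightest probe with a value. A probe without the flag is called dim below. Where a probe was dim on 1 of the arrays, its fold is called a lower bound, taken against the lowest flagged signal of that array, 125 for Villin-Cre and 57.8 for EP4 cKO. A dim probe can exceed that signal, as Cr2 did in Villin-Cre at 143.6. The words at least therefore refer to this bound and not to a guaranteed minimum. A log2 ratio is EP4 cKO over Villin-Cre, and the error behind it is the software's error of the 2 spots, which covers 1 hybridization each and not the spread between mice. Higher and lower mean past 2-fold, and levels are compared between arrays for the same probe only.

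Of all probes, 45.4% carried the flag in Villin-Cre against 51.6% in EP4 cKO, and no spot was saturated. Ptger4 had 2 probes. The brighter gave 6227 for the sample labelled Villin-Cre and 5661 for that labelled EP4 cKO, and the dimmer gave 393 and 592. The targeted gene was therefore not lower by 2-fold in this whole tissue, and whether either probe lies in the floxed part is not given in the sources used here. The direction of every ratio rests on the labels of the arrays. The fibroblast marker list stood apart from the other cell type lists: 5 of its 6 genes had a value, Pdgfra was dim on both arrays, all 5 were lower in the sample labelled EP4 cKO, and the summed signal was 13068 against 290.

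The members with a large difference were higher in the sample labelled EP4 cKO, and none was lower by 2-fold. Tnfsf10, encoding the death receptor ligand TRAIL, Tnfsf13b, encoding the B cell survival factor BAFF, Tnfrsf1b, encoding TNF receptor 2, and Tnfrsf23, encoding a TRAIL decoy receptor of the mouse, were past 2-fold. Of 38 members, 23 had a value and 15 were dim on both arrays. Among the 23, 4 were higher (17.4%) and 0 lower, 15 were measured on both arrays and lay within 2-fold, and 4 had a bound under 2-fold that sets no upper limit, whereas 4.88% of all 14679 genes with a value were higher and 7.98% lower. The median log2 ratio of the 23 was 0.10, against -0.10 over all genes with a value, and that of the 18 measured on both arrays was 0.06, against -0.15. Over the genes measured on both arrays, ligands had a median of 0.43 (4 genes) and receptors one of 0.06 (14 genes). With bounds included the ligand median was 0.72 over 7 genes, itself the bound of Tnfsf9. By probe, 6 of the 29 member probes with a value were higher and 0 lower, against 3.99% and 8.58% of all probes with a value. Scaling moved the split over all genes: 6.42% were higher and 6.27% lower after scaling to the 75th percentile, 7.79% and 4.96% after loess, and 4.12% and 2.68% after normexp with quantile normalization. In bulk tissue, fewer cells of a type and less RNA per cell cannot be told apart.

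**Figure D1:**
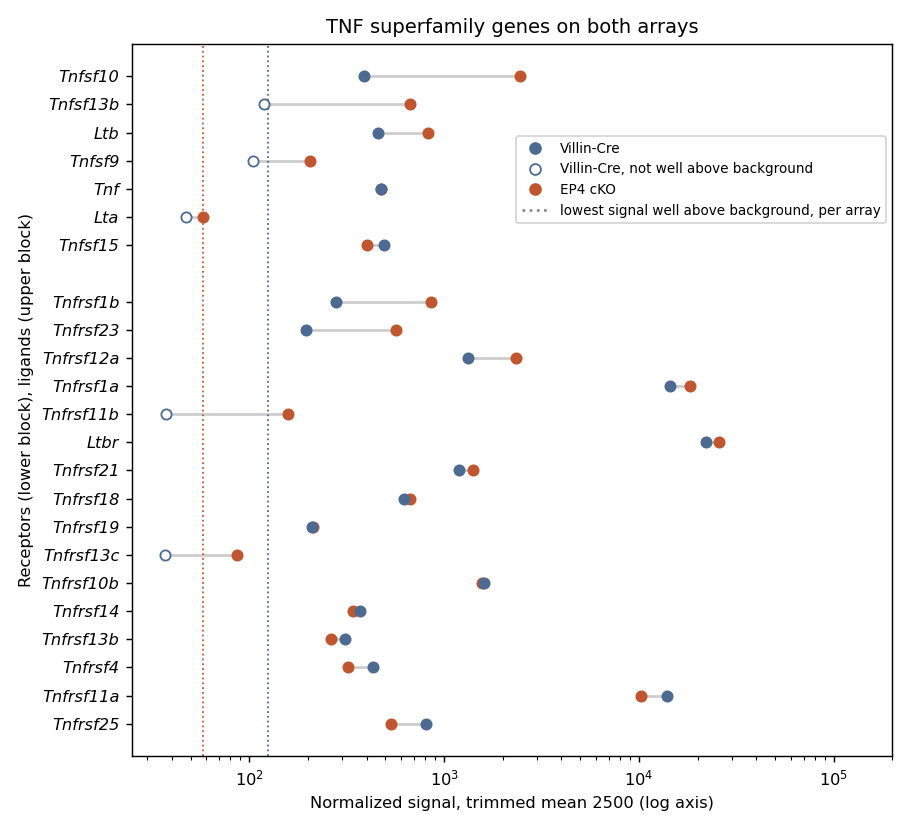
Normalized signal (log axis) of the brightest probe of the 23 TNF superfamily genes with a value, for the samples labelled Villin-Cre (blue) and EP4 cKO (orange), 1 array each, with no error bars. Open circles are signals not well above background, and dotted lines mark the lowest signal well above background on each array (125 and 57.8). The longest lines belong to Tnfsf10, Tnfsf13b, Tnfrsf1b, Tnfrsf23 and Tnfrsf11b.

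The 250 bases before the annotated start are printed below for the 4 members past 2-fold, and for Ltb and Tnf, neighbours on chromosome 17 whose brightest probes lay within 2-fold. They are the RefSeq gene starts on the assembly GRCm38.p6, written 5′ to 3′ on the strand of the gene. Capitals mark matches, on either strand, to the interferon-stimulated response element (GAAA, any 2 bases, then GAAA), to the STAT site TTCNNNGAA or to the kappa B consensus.
Tnfsf10, chr3:27316827-27317076, plus strand: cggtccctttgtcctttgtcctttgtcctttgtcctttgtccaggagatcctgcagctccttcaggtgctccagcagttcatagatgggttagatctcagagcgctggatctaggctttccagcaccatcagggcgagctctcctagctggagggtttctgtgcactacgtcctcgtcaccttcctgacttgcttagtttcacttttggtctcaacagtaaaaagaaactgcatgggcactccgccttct
Tnfsf13b, chr8:10006383-10006632, plus strand: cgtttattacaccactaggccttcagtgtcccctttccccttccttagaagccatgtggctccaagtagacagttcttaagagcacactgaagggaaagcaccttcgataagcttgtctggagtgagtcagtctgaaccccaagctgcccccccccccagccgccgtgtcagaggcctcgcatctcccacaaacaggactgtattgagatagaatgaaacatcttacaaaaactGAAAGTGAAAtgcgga
Tnfrsf1b, chr4:145246871-145247120, minus strand: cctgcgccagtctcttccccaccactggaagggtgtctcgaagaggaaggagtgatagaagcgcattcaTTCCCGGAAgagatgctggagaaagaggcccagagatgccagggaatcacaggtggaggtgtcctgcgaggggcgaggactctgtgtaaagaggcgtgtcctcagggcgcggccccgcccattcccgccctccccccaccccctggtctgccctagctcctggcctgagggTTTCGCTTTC
Tnfrsf23, chr7:143685876-143686125, minus strand: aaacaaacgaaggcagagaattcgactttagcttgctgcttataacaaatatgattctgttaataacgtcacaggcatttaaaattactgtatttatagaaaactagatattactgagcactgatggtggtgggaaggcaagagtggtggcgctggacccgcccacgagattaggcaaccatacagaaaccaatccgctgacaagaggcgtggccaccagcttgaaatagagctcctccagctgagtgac
Ltb, chr17:35194257-35194506, plus strand: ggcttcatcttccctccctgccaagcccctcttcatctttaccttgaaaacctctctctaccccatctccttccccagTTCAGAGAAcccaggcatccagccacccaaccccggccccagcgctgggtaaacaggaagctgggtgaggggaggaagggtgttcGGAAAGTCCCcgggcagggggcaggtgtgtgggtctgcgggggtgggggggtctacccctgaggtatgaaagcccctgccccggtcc
Tnf, chr17:35202008-35202257, minus strand: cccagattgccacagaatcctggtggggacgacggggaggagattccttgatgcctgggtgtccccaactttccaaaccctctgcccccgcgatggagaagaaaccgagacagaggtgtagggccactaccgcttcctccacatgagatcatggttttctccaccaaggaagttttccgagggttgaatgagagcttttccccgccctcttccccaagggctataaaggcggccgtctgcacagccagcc

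Matches were counted in windows of 300 bases, 250 before and 50 after each start, and windows were at hand for 30 member genes. Tnfrsf1b held a match to the interferon-stimulated response element at bases -10 to -1 from the start and to the STAT site at bases -181 to -173. Tnfsf13b held the interferon-stimulated response element at bases -16 to -7 of the printed start, the second of its annotated starts. The window of its first annotated start, not printed, held no match. Tnfsf10 and Tnfrsf23 held none of these letters in their windows, and neither did Tnf. Ltb held a STAT site at bases -172 to -164 and a kappa B match at bases -87 to -78. Of 34 windows of the 30 member genes, 4 held the interferon-stimulated response element (Tnfsf13b, Tnfrsf1b, Tnfrsf14 and Tnfrsf17), 8 the STAT site and 3 the kappa B consensus. Of all 32851 windows, 3.44%, 8.30% and 4.51% held them. A match describes the letters and is not a measured binding site. Windows were not at hand for Cd70, Tnfsf4, Tnfsf9, Tnfsf12, Tnfrsf10b, Tnfrsf11b, Tnfrsf22 and Tnfrsf26.

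Tnfsf10 gave the largest log2 ratio among the 18 members measured on both arrays, and the bound of Tnfsf13b does not settle which of the pair differed more. TRAIL is a ligand that can trigger apoptosis, and its transcription is known to respond to interferon. The signal of Tnfsf10 was 388 in Villin-Cre and 2458 in EP4 cKO, a log2 ratio of 2.66 ± 0.23 (spot error), or 6.34-fold higher. Of all genes measured on both arrays, 99.4% had a lower ratio.

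Of the TRAIL receptors, a decoy was higher and the death receptor lay within 2-fold. Tnfrsf10b, the death receptor that mouse TRAIL binds, gave 1596 in Villin-Cre and 1570.1 in EP4 cKO, a log2 ratio of -0.02 ± 0.21 whose sign turned with the scaling. Its other probe was dim on both arrays. Tnfrsf22, Tnfrsf23 and Tnfrsf26 encode related receptors that lie side by side on chromosome 7, the first 2 of them decoys that bind TRAIL without a death domain. Tnfrsf23 gave 196 in Villin-Cre and 568 in EP4 cKO, a log2 ratio of 1.54 ± 0.28, or 2.90-fold higher. That value rests on 1 of 3 probes, since the other two were dim on both arrays. Tnfrsf22 and Tnfrsf26 were dim on both arrays. Tnfrsf11b, encoding osteoprotegerin, a soluble decoy for TRAIL and for RANKL, gave 37.5 (dim) in Villin-Cre and 159 in EP4 cKO, at least 1.27-fold higher. Its log2 ratio of 0.34 was past 2-fold with loess (1.21) and with dim probes kept (2.08).

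BAFF was the other ligand past 2-fold. Tnfsf13b gave 119 in Villin-Cre, dim and just under the limit of 125, and 667 in EP4 cKO, at least 5.32-fold higher by the bound. The spot error of the Villin-Cre signal was 33.8, so that signal was not clearly under the limit. With normexp the bound was lower, at a log2 ratio of 1.45 against 2.41. The receptors of BAFF, found mainly on B cells and plasma cells, were not shown to be past 2-fold. Tnfrsf13c, encoding the BAFF receptor, gave 36.9 (dim) in Villin-Cre and 86.7 in EP4 cKO, which leaves no fold above 1 (log2 ratio of 1.23 with dim probes kept). Its other probe, dim on both arrays, gave 99.7 in Villin-Cre and 23.6 in EP4 cKO, a log2 ratio of -2.08 from its own signals. The probes of Tnfrsf13c thus went opposite ways when dim signals were kept. Tnfrsf13b, encoding TACI, gave 311 and 261, a log2 ratio of -0.25 ± 0.27 that turned above 0 after loess, and its other probe was dim on both arrays. Tnfrsf17, encoding BCMA, was dim on both arrays.

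The B cell marker list gave no value or bound past 2-fold. Of its 6 genes, 3 had a value, each from the EP4 cKO array alone, Cd79a, Ms4a1 and Cr2 were dim on both arrays, and the summed signal was 264 in Villin-Cre and 415 in EP4 cKO. The plasma cell list had a value for 3 of 5 genes, with summed signals of 7559.9 and 8539, most of them from Sdc1, which epithelium is also known to express. Tnfsf13 (APRIL) had no matched probe. The probe matched to Tnfsfm13 gave 12871 and 16064, a log2 ratio of 0.32, and was looked up after the values were seen. Tnfsfm13 is the read-through transcript that joins Tnfsf12 and Tnfsf13, and it lies outside the rule. Whether its probe also detects Tnfsf13 transcript was not tested. Tnfsf12, encoding TWEAK, was dim on both arrays.

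Macrophages and dendritic cells are known sources of BAFF, TRAIL and TNF. Of the 7 genes of their marker list, 6 had a value, Adgre1 was dim on both arrays, 2 were higher (Itgax and, by a bound, Mrc1) and 0 lower, and the median log2 ratio was 0.68, or 0.48 over the genes measured on both arrays. The list went both ways: Itgax, encoding CD11c, gave 152 in Villin-Cre and 505 in EP4 cKO, whereas Csf1r, encoding the receptor of macrophage colony-stimulating factor, gave 4874 and 2817, and Cd68 gave a log2 ratio of -0.09. The summed signal of the list, most of it from Itgam, was 63320 in Villin-Cre and 88392 in EP4 cKO, and its part in the ratios of Tnfsf10, Tnfsf13b and Tnfrsf1b was not tested. Natural killer and innate lymphoid markers had a value for 5 of 6 genes and went both ways. Gzma gave 476 and 5795, whereas Prf1 gave 1269 and 284. Of the 3 neutrophil markers with a value, S100a8 and S100a9 were higher, while the summed signal of the list, most of it from Csf3r, was 106830 in Villin-Cre and 82672 in EP4 cKO.

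**Figure D2:**
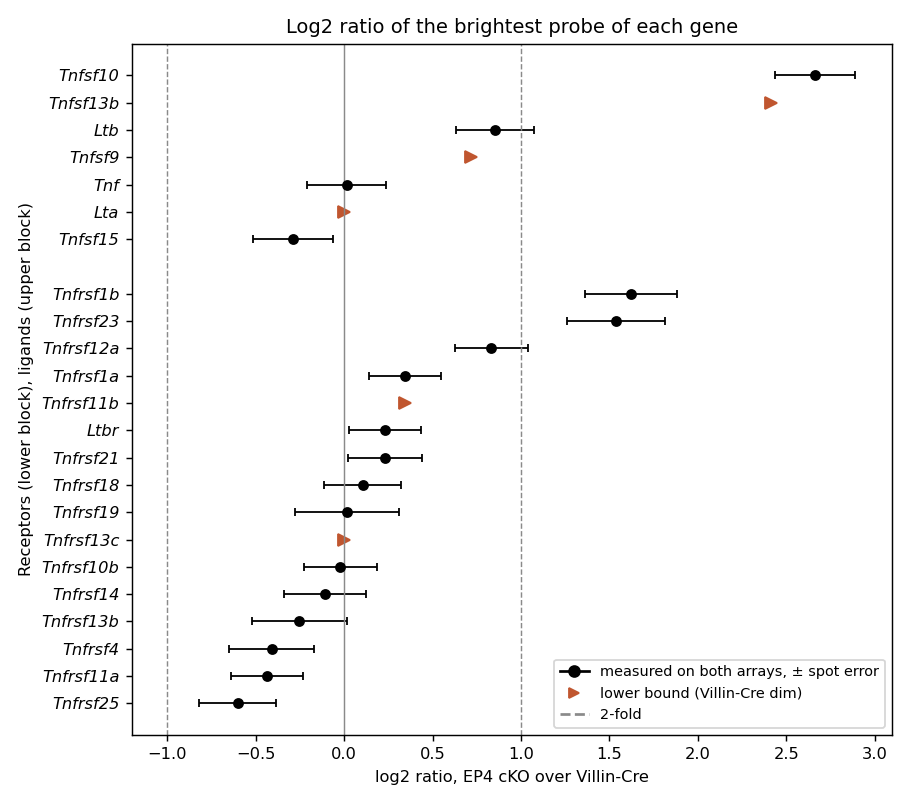
Log2 ratio (EP4 cKO over Villin-Cre) of the brightest probe of each of the 23 members with a value, as labelled on the arrays. Bars are the scanner software's spot error, right-pointing triangles are lower bounds (at 0 where no fold above 1 could be given), and dashed lines mark 2-fold. Tnfsf10 (2.66), Tnfsf13b (bound of 2.41), Tnfrsf1b (1.62) and Tnfrsf23 (1.54) lie beyond the upper line and no gene lies beyond the lower.

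TNF itself was split between its probes, while 1 of its receptors was higher in the sample labelled EP4 cKO. The brighter Tnf probe gave 472 in Villin-Cre and 477 in EP4 cKO, a log2 ratio of 0.01 ± 0.22. The dimmer Tnf probe gave 57.7 (dim) and 262, at least 2.09-fold higher. The probes of this cytokine thus differed by at least 1.05 on the log2 scale, and neither can be preferred from 1 array per genotype. Tnfrsf1b, encoding TNF receptor 2, which is found mainly on leukocytes and endothelium and lacks a death domain, gave 279 and 857, a log2 ratio of 1.62 ± 0.26, or 3.08-fold higher. Tnfrsf1a, encoding the widely expressed death domain receptor TNF receptor 1, gave 14416 and 18313, a log2 ratio of 0.35 ± 0.20. Its dimmer probe gave 775 and 868. Endothelial markers had a value for 2 of 5 genes, with summed signals of 1045 and 1067.

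The lymphotoxins share the locus of Tnf and act through other receptors as well. Ltb, encoding the membrane subunit lymphotoxin beta, gave 456 in Villin-Cre and 822 in EP4 cKO, a log2 ratio of 0.85 ± 0.22, or 1.80-fold. It lay just inside 2-fold, and scaling to the 75th percentile (1.01) or loess (1.08) put it just outside. Lta, encoding the secreted lymphotoxin alpha, gave 47.3 (dim) in Villin-Cre and 57.8 in EP4 cKO, which leaves no fold above 1. Ltbr, the lymphotoxin beta receptor of epithelium, stroma and myeloid cells, gave 21967 and 25814, a log2 ratio of 0.23 ± 0.20. Tnfrsf14, encoding HVEM, a receptor of LIGHT and of lymphotoxin alpha, had probes that disagreed. Its brighter probe gave 368 and 342, a log2 ratio of -0.11 ± 0.23 whose sign turned with the scaling, and its dimmer probe gave 169.9 and 440.4, a log2 ratio of 1.37 ± 0.34. Tnfsf14, encoding LIGHT, was dim on both arrays. All 4 measured markers of lymphoid follicle stroma were dim on both arrays.

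Of the T cell costimulatory ligands and receptors named in this paragraph, none was shown to be past 2-fold with the scaling used here. Tnfrsf1b and Tnfrsf14 are described above and are not counted among them. Tnfsf9, encoding the ligand of 4-1BB, gave 105 (dim) in Villin-Cre and 206 in EP4 cKO, at least 1.64-fold higher. With loess its log2 ratio of 0.72 became 1.43, past 2-fold. Its receptor gene Tnfrsf9 was dim on both arrays. Tnfsf15, encoding TL1A, a ligand linked to inflammatory bowel disease, gave 492 and 403, a log2 ratio of -0.29 ± 0.23. Its dimmer probe gave 249 and 248. Tnfrsf25, encoding the TL1A receptor DR3, gave 809.8 and 533, a log2 ratio of -0.60 ± 0.22, the lowest among members with a value. The ligand and the receptor thus both lay below 0, within 2-fold. Tnfrsf4, encoding OX40, gave 429 and 323, a log2 ratio of -0.41 ± 0.24. Tnfrsf18, encoding GITR, a receptor of regulatory T cells, gave 623 and 669.6, a log2 ratio of 0.10 ± 0.22. Their ligand genes Tnfsf4 and Tnfsf18 were dim on both arrays, as were the pairs Cd70 with Cd27 and Tnfsf8 with Tnfrsf8. The 7 T cell markers all had a value and went both ways: Cd3g was higher (log2 ratio of 1.28), Cd3d gave -0.79, and the median of 0.00 was the bound of Cd8a. Their summed signal was 13169 in Villin-Cre and 13830 in EP4 cKO.

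Tnfrsf12a, Tnfrsf21, Tnfrsf11a and Tnfrsf19 lay within 2-fold. Tnfrsf12a, encoding the TWEAK receptor Fn14, which is known to be induced in injured epithelium, gave 1319 in Villin-Cre and 2349 in EP4 cKO, a log2 ratio of 0.83 ± 0.21, or 1.78-fold. Tnfrsf21, encoding death receptor 6, gave 1193 and 1399.9, a log2 ratio of 0.23 ± 0.21, while its dimmer probe gave 435 and 388. Its probes thus lay on either side of 0. Tnfrsf11a, encoding RANK, through which RANKL drives the development of M cells in the gut, gave 13930 and 10298, a log2 ratio of -0.44 ± 0.20. The dimmer probe gave 4829 and 4058, in the same direction. Tnfsf11, encoding RANKL, was dim on both arrays. Tnfrsf19, encoding TROY, a receptor known from stem cells of the crypt, gave 209.8 and 213, a log2 ratio of 0.02 ± 0.29. Its other probe was dim on both arrays. Eda and Edar, the ectodysplasin pair of skin appendages, were dim on both arrays. All 7 epithelial markers had a value, 1 was higher (Krt20), and their median log2 ratio was 0.32. Smooth muscle markers had a value for 5 of 6 genes (Myh11 was dim on both arrays), with Cnn1 lower (log2 ratio of -2.73), Acta2 at 0.62, Actg2 at 0.72, and summed signals of 30049 and 45461. The 4 fat cell markers were dim on both arrays. The part of the fibroblast, smooth muscle, epithelial and immune marker differences in these ratios was not tested.

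**Figure D3:**
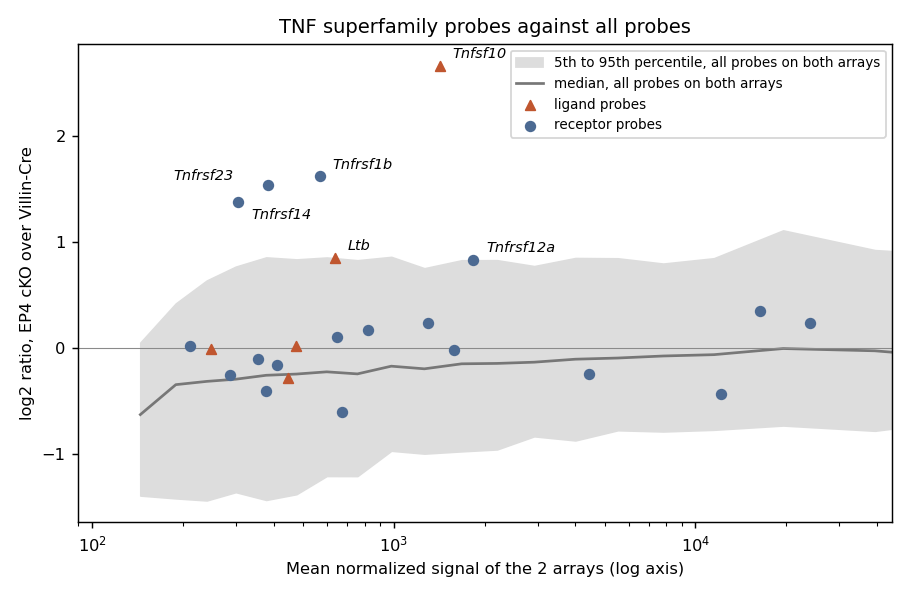
Log2 ratio (EP4 cKO over Villin-Cre) against the mean normalized signal of the 2 arrays (log axis) for the 23 member probes well above background on both arrays, with ligands as triangles and receptors as circles. The line and the band are the median and the 5th and 95th percentiles of all probes on both arrays, and 4 probes, of Tnfsf10, Tnfrsf1b, Tnfrsf23 and Tnfrsf14 (dimmer probe), lie above the band, while those of Ltb and Tnfrsf12a lie at its upper edge.

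The centre of all ratios moved with the signal. Among all probes flagged for both genotypes, those with the lowest 10% of signals had a median log2 ratio of -0.50 and those with the highest 10% one of -0.09, as the plot of ratio against signal shows. The 24 member probes dim on both arrays had signals of up to 99.7 in Villin-Cre and 44.8 in EP4 cKO. Of the member probes, 54.7% had a value, against 62.5% of all probes with a gene symbol. Of 6 genes with at least 2 probes with a value, Tnf and Tnfrsf14 had probes over 0.5 apart on the log2 scale.

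The signaling proteins behind the receptors were measured as a list of 36 adaptors, kinases, caspases, inhibitors and NF-kappa B subunits, all with a value. In this list 2 genes were higher and 2 lower in the sample labelled EP4 cKO, 5.56% each way beside 4.88% higher and 7.98% lower of all genes, and the median log2 ratio was 0.01, against -0.10 over all genes with a value. Ripk3, encoding the kinase that starts necroptosis, gave 3379 and 9078, 2.69-fold higher. Mlkl, encoding the protein that RIPK3 phosphorylates and that permeabilizes the membrane, gave 1785 and 5466, 3.06-fold higher. Traf1, encoding an adaptor that binds TNF receptor 2, gave 1806 and 368, 4.91-fold lower. Ikbkg, encoding the regulatory subunit of the I kappa B kinase complex, gave 974 and 381 with its brightest probe, 2.56-fold lower, but its other probes gave log2 ratios of 0.02 and -0.18, and with normexp the brightest lay within 2-fold (-0.90).

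Of the other signaling genes, 31 lay within 2-fold on both arrays and Edaradd had a bound only, and the following were named after their values were seen. Tnfaip3, encoding the inhibitor A20, gave 6096 and 10757, a log2 ratio of 0.82. Nfkbia, encoding I kappa B alpha, gave 21845 and 35693, a log2 ratio of 0.71. Casp8, encoding the caspase that death receptors activate, gave 5958 and 9366, a log2 ratio of 0.65. Tab1, encoding a partner of the kinase TAK1, gave a log2 ratio of -0.66. Cyld, encoding a deubiquitinase, gave -0.47 with its brightest probe and 0.11 and -0.11 with its other probes.

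Of the family genes with other symbols, Fas, the death receptor of Fas ligand, gave 1365 and 2095, a log2 ratio of 0.62, and 0.14 with its dimmer probe. Relt gave 729.9 and 764, a log2 ratio of 0.07. Fasl, Cd40, Cd40lg, Ngfr and Eda2r were dim on both arrays. The 4 genes that govern shedding of TNF and its receptors from the membrane, Adam10, Adam17, Rhbdf1 and Rhbdf2, lay within 2-fold, with log2 ratios from -0.35 to 0.34.

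**Figure D4:**
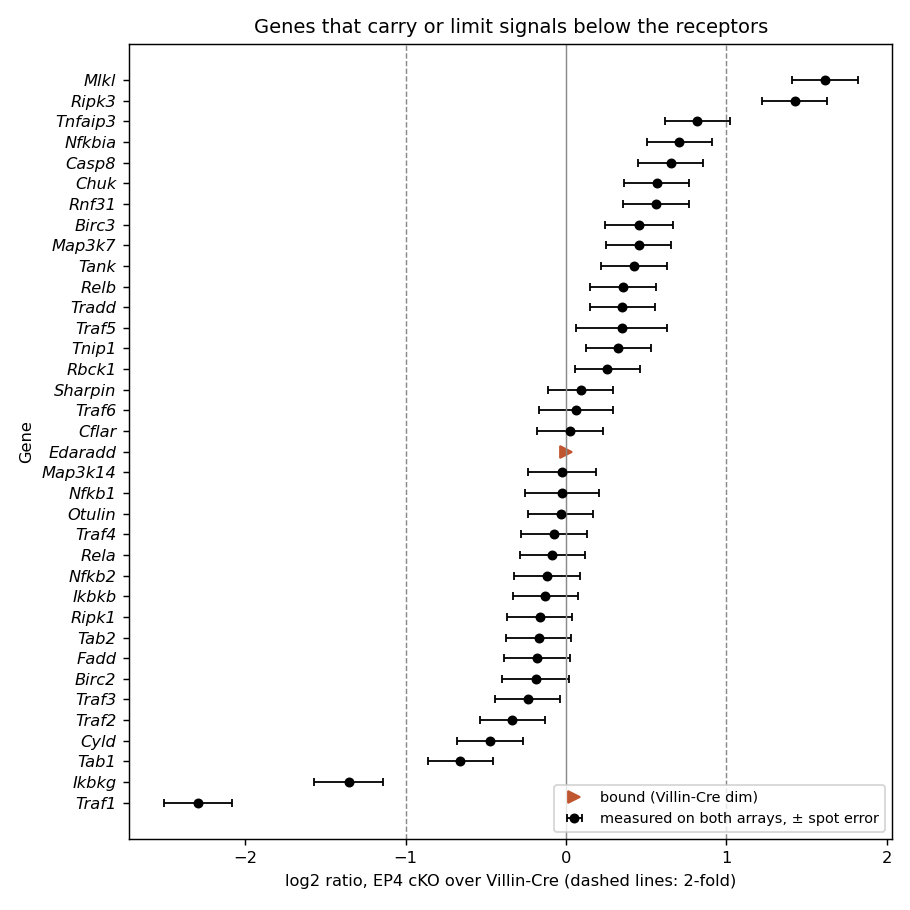
Log2 ratio (EP4 cKO over Villin-Cre) of the brightest probe of the 36 genes that carry or limit TNF receptor signals, as labelled on the arrays, with bars for the scanner software's spot error, a triangle for the bound of Edaradd, and dashed lines at 2-fold. Mlkl (1.61) and Ripk3 (1.43) lie beyond the upper line, and Traf1 (-2.30) and Ikbkg (-1.36) beyond the lower.

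The 4 members past 2-fold stayed past it under the 7 other ways of scaling, filtering or combining probes wherever they gave a value. Over these the log2 ratio ranged from 2.29 to 2.86 for Tnfsf10, 1.45 to 2.79 for Tnfsf13b, 1.20 to 1.87 for Tnfrsf1b and 1.20 to 1.82 for Tnfrsf23. Tnfsf13b has no value when a probe must be well above background on both arrays. Each of the 4 genes had 1 probe with a value, so the mean of probes could only repeat the main value. The changes of filter also repeated it for Tnfsf10, Tnfrsf1b and Tnfrsf23. For these genes the comparison is therefore mainly one of scalings.

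**Figure D5:**
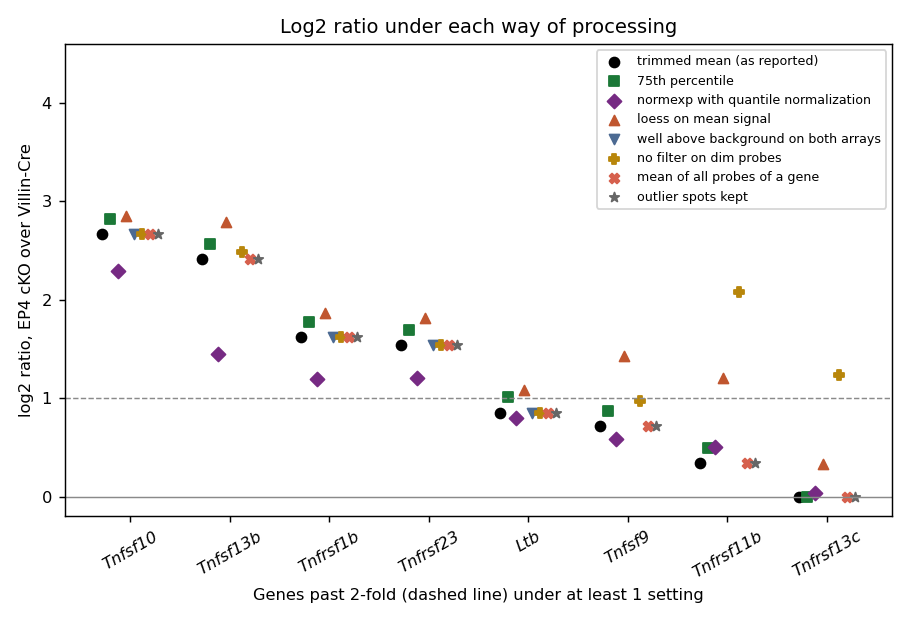
Log2 ratio (EP4 cKO over Villin-Cre) of the 8 members that were more than 2-fold higher (dashed line) under at least 1 way of processing, among the 23 with a value, with a symbol for each way. Tnfsf10, Tnfsf13b, Tnfrsf1b and Tnfrsf23 lie above the line wherever they have a value, while Ltb, Tnfsf9, Tnfrsf11b and Tnfrsf13c cross it in some.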

How the data were processed

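The authors deposited scanner output of Feature Extraction 12.0.3.1 (the submitters' processing notes name 11.5.1.1), 1 file per array. The deposited intensity used here is the processed signal, background-subtracted and detrended by that software. It was multiplied on each array (by 3.45 for Villin-Cre, by 2.68 for EP4 cKO) so that the mean without 2% of probes at each end was 2500, as in the authors' methods. Control spots and outlier spots on either array were left out. A gene table of GRCm38.p6 named 32989 of 56593 probes (58.3%) through RefSeq accessions. The symbol rule took 40 genes of that table, and Tnfsf13 and its antisense transcript Tnfsf13os had no matched probe. The grid's own coordinates follow another assembly and are not used.

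The members, the lists and the rule that every member and every list gene past 2-fold may be named were chosen with earlier results of these data known. Ratios, bounds, medians and counts were computed without a test. The alternatives were the 75th percentile, normexp (offset 50) with quantile normalization, loess (span 0.3), both arrays well above background, no filter, the mean of probes, outlier spots kept, and thresholds of 1.5-fold and 3-fold. The steps were tested on simulated data. Python 3.11.15, numpy 2.4.6, pandas 2.3.3, statsmodels 0.14.6, matplotlib 3.10.9, R 4.3.3 and limma 3.58.1 were used. Probes spotted 10 times and well above background at all spots (163) had a median SD of the log2 ratio of 0.034, which covers spots of the same hybridization. Signal over background and the number of arrays limit the precision.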

Additional observations from a re-analysis of the deposited data

How the results depend on the processing

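No paired analysis was possible because there was 1 array per genotype, and for the same reason no array could be left out. Against 4 members higher and 0 lower by 2-fold, loess gave 7 higher, a threshold of 1.5-fold gave 7 higher and 1 lower (Tnfrsf25), and keeping dim probes gave 11 of 38 lower, where 31.7% of all genes were lower. The other settings gave 3 to 6 higher. The median log2 ratio of the members, 0.10, was 0.34 with loess and -0.07 with dim probes kept. The median of all genes moved by 0.10 with the 75th percentile, 0.10 with normexp, 0.13 with loess and -0.27 with dim probes kept. Of 156 values of single members under the alternatives, 6 crossed 2-fold (Ltb with the 75th percentile and loess, Tnfsf9 with loess, Tnfrsf11b with loess and with dim probes kept, Tnfrsf13c with dim probes kept) and 8 changed sign (Tnfrsf10b, Tnfrsf14 and Tnfrsf13b). Of the signaling genes, 2 were more than 2-fold higher under each of the 7 alternatives to the scaling, filter and probe rule (other thresholds were not run for this list), and the 2 lower became 1 with normexp and 1 with the mean of probes, where Ikbkg gave log2 ratios of -0.90 and -0.51. For a member dim on 1 array the fold is a bound, and for the 15 dim on both arrays a difference was not detectable. The cause of these shifts was not tested.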
